A study of Mus musculus with 2 samples.

Results

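The cell cycle genes described here are 50 genes in 2 sets, summed apart. The G2/M set holds 26 genes of late cycle and mitosis, and the S set holds 24 genes of DNA replication. They are 50 of the 21951 genes and transgene sequences counted, and all 50 were found in the deposited matrix. They were chosen by name, not by their values in these cells.

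The cells came from liver and heart of C57BL/6 pups that were given 40 mg/kg of 4-hydroxytamoxifen at postnatal day 3 and collected 3 days later, at P6-P7. Cells of 3 conditions were hashtagged and pooled in 1 10x Genomics library, namely control, Cdh5-CreERT2 + iSuRe-Cre and Cdh5-CreERT2 + iSuRe-HadCre. Cdh5-CreERT2 is a tamoxifen-inducible Cre driven in endothelium, and the iSuRe alleles are reporters that give MbTomato once recombined. The study describes iSuRe-Cre as expressing Cre permanently together with MbTomato. It describes iSuRe-HadCre as expressing Cre only transiently, with MbTomato turned on when Cre is deleted. According to the labels the endothelial cells (ECs) were sorted as CD31+ and MbTomato+, although the series text also names cells without Tomato signal. The labels do not mention floxed Notch1, which was taken for the iSuRe groups from a figure of the study, and no source used here gave the genotype of the control or the number of pups per group. Each group is 1 sample without a replicate, so no test was made, and every interval below is an exact 95% interval that covers counting error only.

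A cell was counted in a group when it passed the quality limits, carried that group's hashtag alone and had log-normalized Cdh5, an endothelial cadherin, above 0.9. This gave 254 control, 435 iSuRe-Cre and 311 iSuRe-HadCre heart ECs, and 54, 858 and 76 liver ECs in the same order. The median cell held 7322 to 16379 UMIs (unique molecular identifiers, 1 per captured transcript), with iSuRe-Cre heart deepest. Levels are CPM, the UMIs of a gene or set scaled to equal UMI totals per group, as counts per 1000000. Notch1, the receptor gene targeted in the iSuRe groups, was at 138 CPM in control, 12.6 in iSuRe-Cre and 23.2 CPM in iSuRe-HadCre heart, and at 160.2, 21.4 and 30.7 CPM in liver. The endothelial marker list (Cdh5, Pecam1 and 6 others) summed to 4113 to 5200.2 CPM in the 6 groups and to 1656 CPM in free RNA, the RNA of barcodes of 10 to 100 UMIs. The reporter sequence WPRE was above a log-normalized 0.5 in 89.8% of control, 33.3% of iSuRe-Cre and 93.9% of iSuRe-HadCre heart ECs.

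Cells copy their DNA in S phase and divide it in mitosis, and each step has its own wave of transcription. Around the G1/S transition E2F factors switch on the replication genes, and later the B-Myb, MuvB and FoxM1 proteins switch on the mitotic genes, which the DREAM complex holds down in resting cells. Endothelium of the newborn is still growing, and Notch signalling is known to restrain its proliferation and to accompany arterial fate.

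Part of the promoters of the sets carry letters by which these factors are known to read them. RefSeq promoter windows of GRCm38.p6, 250 bases before to 50 after a start, matched 44 of the 50 genes. There were 23 windows for 23 genes of the G2/M set and 24 windows for 21 genes of the S set. No window was matched for Gins2, Ccna2, Aurkb, Mcm4, Ccne2 and Tpx2. The CHR element, searched as TTTGAA or TTCGAA on both strands, lay in 73.9% of G2/M windows, 16.7% of S windows and 19.2% of all 32851 windows. E2F motifs, searched as TTTCCCGC, TTTCGCGC, TTTGCCGC or TTTGGCGC on both strands, lay in 4.35% of G2/M windows, 41.7% of S windows and 2.26% of all windows. CCAAT on both strands, the site of NF-Y, lay in 73.9%, 66.7% and 37.4%. The 2 sets thus differed in CHR and E2F letters and both exceeded all windows in CCAAT, as a description of letters and not of binding. E2F motifs of opposite strands can overlap each other, as they do once in Mcm6.

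The 3 G2/M members with the most UMIs in the 6 groups among those with a CHR before the start are Top2a, Ube2c and Mki67, and their 250 bases before the start are shown 5′ to 3′ with CHR and CCAAT letters, on either strand, in capitals.
Top2a (chr11:99024190-99024439, minus strand): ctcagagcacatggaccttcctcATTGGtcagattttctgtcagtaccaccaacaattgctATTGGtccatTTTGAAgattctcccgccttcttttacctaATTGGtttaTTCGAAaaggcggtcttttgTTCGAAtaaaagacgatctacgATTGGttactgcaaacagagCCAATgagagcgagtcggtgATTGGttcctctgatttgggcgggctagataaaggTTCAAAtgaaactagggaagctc
Ube2c (chr2:164769679-164769928, plus strand): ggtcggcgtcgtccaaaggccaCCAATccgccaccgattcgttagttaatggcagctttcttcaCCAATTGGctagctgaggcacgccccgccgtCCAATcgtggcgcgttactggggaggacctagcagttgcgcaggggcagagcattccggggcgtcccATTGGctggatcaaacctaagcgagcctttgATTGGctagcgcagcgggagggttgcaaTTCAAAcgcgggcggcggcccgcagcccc
Mki67 (chr7:135716380-135716629, minus strand): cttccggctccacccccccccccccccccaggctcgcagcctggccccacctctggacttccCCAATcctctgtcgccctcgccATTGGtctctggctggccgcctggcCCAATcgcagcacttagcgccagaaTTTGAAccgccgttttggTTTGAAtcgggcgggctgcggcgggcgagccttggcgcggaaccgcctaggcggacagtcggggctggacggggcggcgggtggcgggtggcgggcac
The 3 S members chosen the same way for an E2F motif are Hells, Mcm6 and Pola1, with the E2F letters in capitals.
Hells (chr19:38930740-38930989, plus strand): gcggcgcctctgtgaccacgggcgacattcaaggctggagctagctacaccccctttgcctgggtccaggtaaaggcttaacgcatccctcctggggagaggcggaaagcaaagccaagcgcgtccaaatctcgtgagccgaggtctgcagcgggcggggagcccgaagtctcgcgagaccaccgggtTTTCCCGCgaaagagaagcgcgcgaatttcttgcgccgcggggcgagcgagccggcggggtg
Mcm6 (chr1:128359706-128359955, minus strand): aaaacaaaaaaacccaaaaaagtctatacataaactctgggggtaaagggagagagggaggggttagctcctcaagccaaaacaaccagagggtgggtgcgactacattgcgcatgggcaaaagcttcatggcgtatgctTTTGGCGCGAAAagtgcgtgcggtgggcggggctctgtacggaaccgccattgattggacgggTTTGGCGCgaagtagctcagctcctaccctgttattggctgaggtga
Pola1 (chrX:93632156-93632405, minus strand): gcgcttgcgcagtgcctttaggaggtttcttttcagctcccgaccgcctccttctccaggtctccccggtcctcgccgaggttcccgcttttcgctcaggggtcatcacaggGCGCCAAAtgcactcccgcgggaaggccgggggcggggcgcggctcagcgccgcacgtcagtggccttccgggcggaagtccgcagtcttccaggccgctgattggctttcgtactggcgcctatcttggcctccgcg
The last CHR letters end 18 bases before the start in Top2a and 24 in Ube2c, and 93 in Mki67.

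In heart, the G2/M genes were higher in both iSuRe groups than in control, and the S genes differed little. The G2/M set summed to 1046 CPM (1010.1 to 1083) in control, 2521 CPM (2487 to 2556) in iSuRe-Cre and 2104 CPM (2053 to 2155) in iSuRe-HadCre ECs. The S set summed to 698, 849 and 875 CPM in the same order. Relative to control the G2/M set was 2.41-fold (2.32 to 2.50) in iSuRe-Cre and was 2.01-fold (1.93 to 2.10) in iSuRe-HadCre, and the S set 1.22-fold (1.16 to 1.28) and 1.25-fold (1.18 to 1.33). Both ratios use the same control cells. The iSuRe-Cre ratio depended on the WPRE criterion, since over the 145 iSuRe-Cre heart ECs with WPRE above 0.5 the G2/M set was 1.17-fold control. With the same criterion in iSuRe-HadCre it was 2.07-fold. In both ratios the limit was put on the iSuRe cells only, and the 228 control heart ECs above it had the G2/M set at 1102 CPM.

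In liver the G2/M set lay closer together than in heart, and the S set was spread wider. The G2/M set was at 1320.4 CPM in control, 1302 in iSuRe-Cre and 1659 CPM in iSuRe-HadCre ECs, and the S set at 734, 883 and 1063 CPM. The S set was 1.20-fold (1.10 to 1.33) control in iSuRe-Cre and 1.45-fold (1.29 to 1.63) in iSuRe-HadCre. For the G2/M set the iSuRe-Cre ratio was 0.986 (0.919 to 1.06), an interval that holds 1, and the iSuRe-HadCre ratio was 1.26 (1.15 to 1.38). The latter rested on few cells. The 4 iSuRe-HadCre liver ECs above 20000 UMIs held 546 of the 1133 G2/M UMIs of that group, and in the other depth ranges the set was at 1014 to 1092 CPM. The ratio was 0.940 without the 5% of cells highest in UMIs, 0.941 with a hashtag minimum of 10 UMIs and 0.728 with at least 1 Cdh5 UMI. The control liver group has 54 cells and 824 G2/M UMIs. Free RNA held the G2/M set at 2164 CPM and the S set at 1205 CPM, at or above most of the groups, so the sets' levels are read below together with how many cells carried them.

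**Figure D1:**
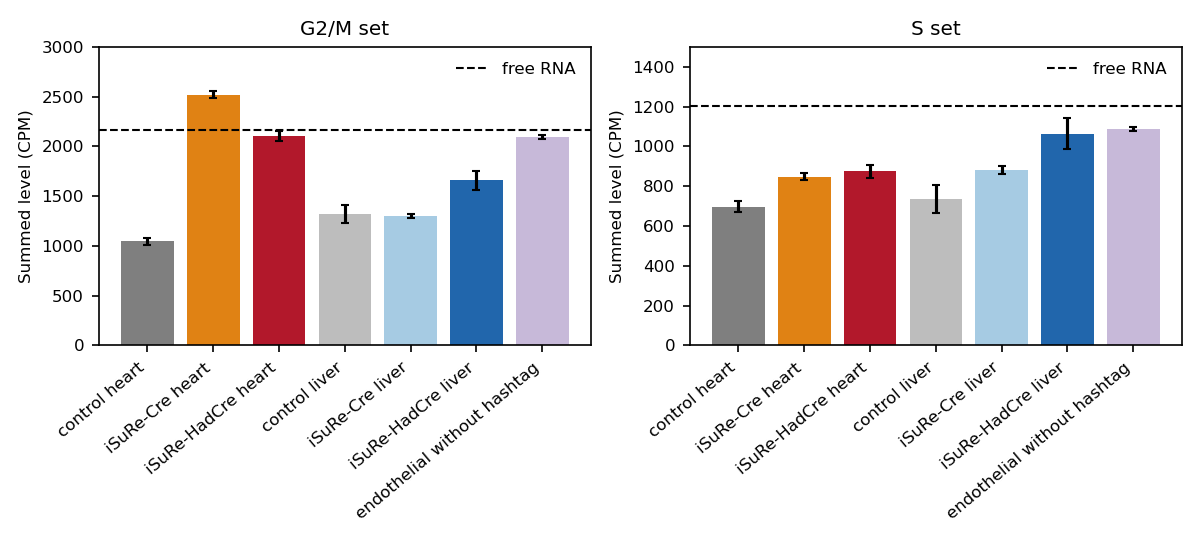
Summed level of the G2/M set (left) and the S set (right) in CPM, for ECs of the 6 hashtag groups and for ECs without a hashtag. Bars are sums over 1 group each with exact 95% Poisson intervals for counting error, and the dashed line is the level in free RNA. In heart the G2/M set is at 1046 CPM in control against 2521 and 2104 CPM in the iSuRe groups, and the S set is between 698 and 875 CPM.

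The G2/M transcripts sat in a minority of cells. A cell is called G2/M-rich here when at least 20 of each 10000 of its UMIs were G2/M UMIs, a limit set after the distribution was seen, and 4 to 12 cells per heart group lay between 15 and 25. In heart, 22 of 254 control ECs were G2/M-rich (8.66%, 5.51 to 12.8), 116 of 435 iSuRe-Cre ECs (26.7%, 22.6 to 31.1) and 47 of 311 iSuRe-HadCre ECs (15.1%, 11.3 to 19.6). These intervals cover counting error over cells only, without replicates, so their overlap or lack of it is no test between conditions. Among heart ECs with WPRE above 0.5 the control share was 9.21% (5.79 to 13.7). The iSuRe-Cre share was then 17.2% (11.5 to 24.4) and the iSuRe-HadCre share 15.8% (11.8 to 20.4). In liver 8 of 54 control (14.8%), 185 of 858 iSuRe-Cre (21.6%) and 16 of 76 iSuRe-HadCre ECs (21.1%) were G2/M-rich. G2/M-rich cells held 79.2% to 93.4% of the G2/M UMIs of their group. In iSuRe-HadCre liver they also held most Notch1 UMIs, with 15 UMIs (89.4 CPM) against 6 UMIs (11.6 CPM) in the other cells. The G2/M-rich and other cells had Notch1 at 25.4 and 20.3 CPM in iSuRe-Cre liver, and at 117 and 169.6 CPM in control liver.

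The remaining cells, held low by the limit itself, carried the G2/M set at a similar level in the 6 groups. It was 216 CPM in control, 248 in iSuRe-Cre and 247 CPM in iSuRe-HadCre heart, and 333, 267 and 260.1 CPM in liver. Were all of it free RNA, free RNA would make up 9.98% to 15.4% of the UMIs of those cells. Within the G2/M-rich cells, which were chosen on this same sum, the set was at 5266, 7093 and 7038 CPM in heart. Over all heart cells, both the share of such cells and their content were thus higher in the iSuRe groups. Among heart ECs with WPRE above 0.5 the content was 5365 CPM in control, 5179.8 in iSuRe-Cre and 7055 CPM in iSuRe-HadCre, so for iSuRe-Cre it was not higher there.

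**Figure D2:**
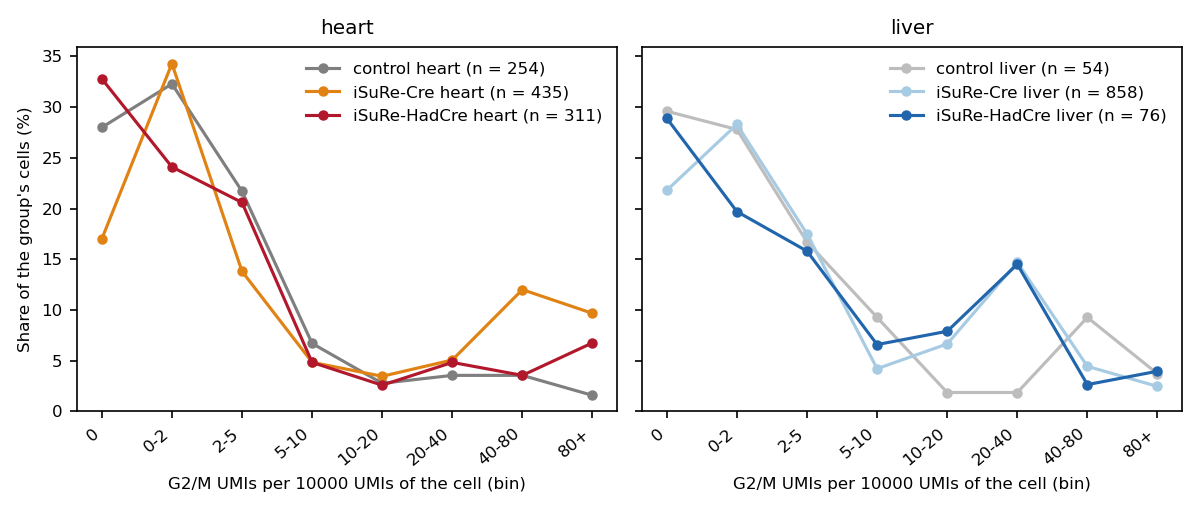
Share of each group's ECs (vertical axis, %) by the cell's G2/M UMIs per 10000 UMIs (horizontal axis, bins), in heart (left) and liver (right). Points are shares of the cells of 1 group, joined by lines. Most cells lie below 10, and 26.7% of iSuRe-Cre heart ECs lie at 20 or above, against 15.1% in iSuRe-HadCre and 8.66% in control.

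The S set was spread more evenly over cells. In heart it was at 1715, 1321 and 1905 CPM in the G2/M-rich cells of the 3 groups, control first and iSuRe-HadCre last, and at 498, 614 and 488 CPM in the others. Over the 1000 heart ECs the 2 sums had a Pearson r of 0.52 on log-normalized values, all from 1 library and not corrected for depth. Members differed in this respect. Rrm2, a subunit of ribonucleotide reductase, was at 108 against 13.9 CPM in G2/M-rich and other iSuRe-Cre heart ECs, and Mcm3, part of the replicative helicase, at 71.8 against 53.0 CPM. Mki67, the proliferation marker Ki-67, was at 503 against 17.7 CPM, and Ccnb1, cyclin B1, at 167 against 3.61 CPM. These cells were chosen on the G2/M sum, so the G2/M values describe the choice.

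Depth differed between groups and between cells. G2/M-rich heart ECs were deeper than the others, with medians of 21689.5 against 8326 UMIs in control, 20816 against 15179 in iSuRe-Cre and 12677 against 6928 in iSuRe-HadCre. Among cells of 10000 to 20000 UMIs only, the G2/M set was at 689 CPM in 76 control, 2585 CPM in 174 iSuRe-Cre and 2953 CPM in 61 iSuRe-HadCre heart ECs. Among cells of 5000 to 10000 UMIs it was at 423, 624 and 1142 CPM. Above 20000 UMIs the G2/M set was at 1922 CPM in 40 control, 2748 CPM in 169 iSuRe-Cre and 2939 CPM in 28 iSuRe-HadCre heart ECs. The G2/M-rich share of these deep cells was 35.0%, 35.5% and 46.4%, nearly level between control and iSuRe-Cre. The order of control below both iSuRe groups in CPM held in these depth ranges, whereas the order of the iSuRe groups did not match the sums over all cells. Thinned to 2000 UMIs per cell, a depth every cell reached, at least 3 G2/M UMIs were left in 11.1% of control, 29.3% of iSuRe-Cre and 17.3% of the iSuRe-HadCre heart ECs, against 29.9%, 54.9% and 30.9% before thinning.

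Cells with little WPRE carried much of the iSuRe-Cre heart level. The 290 iSuRe-Cre heart ECs with WPRE at or below 0.5 had the G2/M set at 3169 CPM and 31.4% (26.1 to 37.1) G2/M-rich cells, and the 145 above it had 1220.4 CPM and 17.2% (11.5 to 24.4). Notch1 was at 9.74 and 18.5 CPM in these cells, both far under the control level. In iSuRe-HadCre heart 292 of 311 ECs were above the limit, at 2169.9 CPM. In iSuRe-Cre liver the split went the other way for the share of G2/M-rich cells, 16.5% of 479 cells at or below the limit and 28.0% of 379 above it. What part WPRE has in these differences was not tested.

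The heart difference in the G2/M level was wide in capillary-like ECs and narrow in ECs without a subtype. In the latter the share of G2/M-rich cells was highest in control. Subtypes are cells whose UMIs of 1 marker list alone were at least 3 times its free RNA share. At least 5 UMIs from at least 3 genes of the list were needed. Cells that met more than 1 list were left out, namely 77 control, 46 iSuRe-Cre and 66 iSuRe-HadCre heart ECs. Their set levels were not computed apart, so the subtype values do not show whether the heart difference holds in them. In capillary-like cells (Tcf15, Fabp4, Car4 and others) the G2/M set was at 909.8 CPM in 144 control, 3016 CPM in 287 iSuRe-Cre and 2474 CPM in 134 iSuRe-HadCre heart ECs. The ratios to control were 3.31 (3.15 to 3.49) and 2.72 (2.55 to 2.90), and the S set had 1.50 and 1.30. G2/M-rich cells made up 7.64%, 33.1% and 14.9% of these cells. Heart ECs with none of the 4 lists were G2/M-rich in 8 of 21 control (38.1%, 18.1 to 61.6), 18 of 69 iSuRe-Cre (26.1%, 16.3 to 38.1) and 23 of 74 iSuRe-HadCre cells (31.1%, 20.8 to 42.9). Their G2/M ratios to control were 1.12 and 1.23. The S set had ratios of 0.681 (0.623 to 0.745) and 0.941 (0.861 to 1.03) in these cells, below control where capillary-like cells lay above it.

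Large-vessel-like cells (Gja5, Vwf, Bmx and others) had the lowest levels in heart. The G2/M set was at 126 CPM in 11 control and 97.6 CPM in 24 iSuRe-Cre cells. None of these cells was G2/M-rich, a count of 0 that allows up to 28.5% and 14.2%. In iSuRe-HadCre it was at 1130.2 CPM, which came from 3 G2/M-rich cells of 33, and at 109 CPM in the others. At least 1 Mki67 UMI was found in 2 of 24 large-vessel-like iSuRe-Cre heart cells (8.33%, median depth 9469.5 UMIs) and in 37.2% of all iSuRe-Cre heart ECs (median 16379), or 0.872% and 17.8% after thinning. Thinned shares of all control and iSuRe-HadCre heart ECs were 6.20% and 10.9%.

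**Figure D3:**
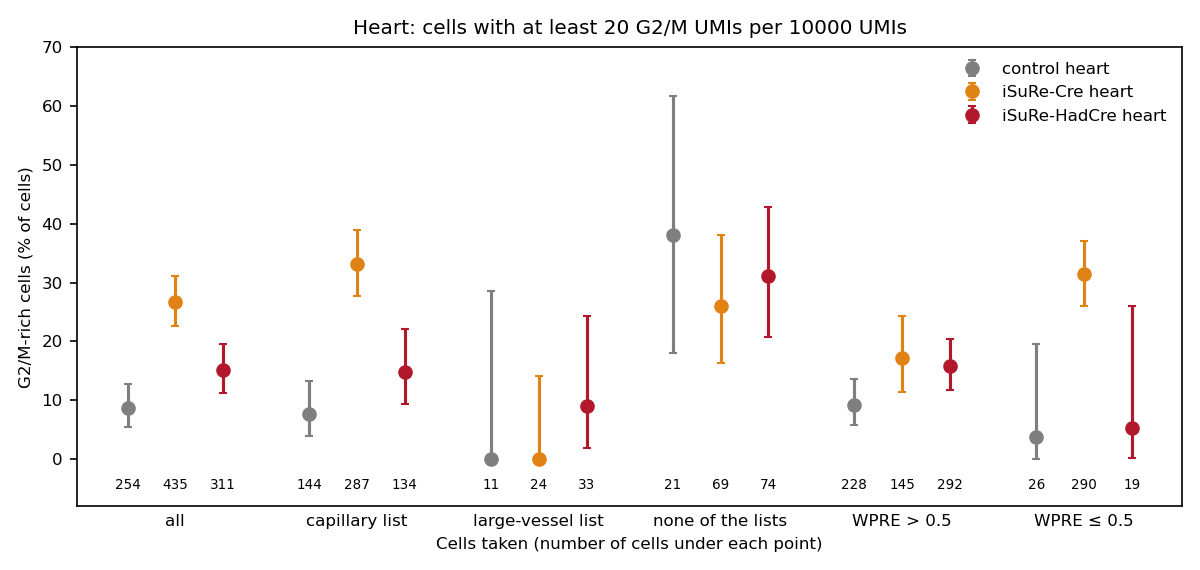
Share of heart ECs that were G2/M-rich (vertical axis, %), for all cells, for cells of the capillary or large-vessel list or of none of the lists, and for cells split at a log-normalized WPRE of 0.5. Points are 1 group each with exact 95% binomial intervals, and the number of cells stands under each point. The iSuRe-Cre share is 33.1% in capillary-like cells and 31.4% in cells of low WPRE, against 17.2% in cells of high WPRE.

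Of the G2/M members, 22 of 26 were at least 2-fold higher in iSuRe-Cre than in control heart ECs, against 6.10% of the 12179 genes with at least 20 UMIs over both groups. None was 2-fold lower (background 3.76%), and all 26 had a ratio above 1, with a median of 2.40, where the median over all these genes was 0.961. Of the S members 0 of 24 were 2-fold higher, the median was 1.17 and 21 were above 1. In iSuRe-HadCre over control heart, 13 of 26 G2/M members and 0 of 24 S members were at least 2-fold higher, against 6.20% of 11453 genes, with medians of 2.00 and 1.17 and 1.10 over all genes. All 50 members passed the minimum in these comparisons. With WPRE above 0.5 in iSuRe-Cre, 8 of the 26 G2/M members were below control, namely Top2a, Aurka, Ube2c and Anln, which had been 2-fold higher, and Aurkb, Bub1, Bub1b and Kif11, at 0.769- to 0.938-fold.

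**Figure D4:**
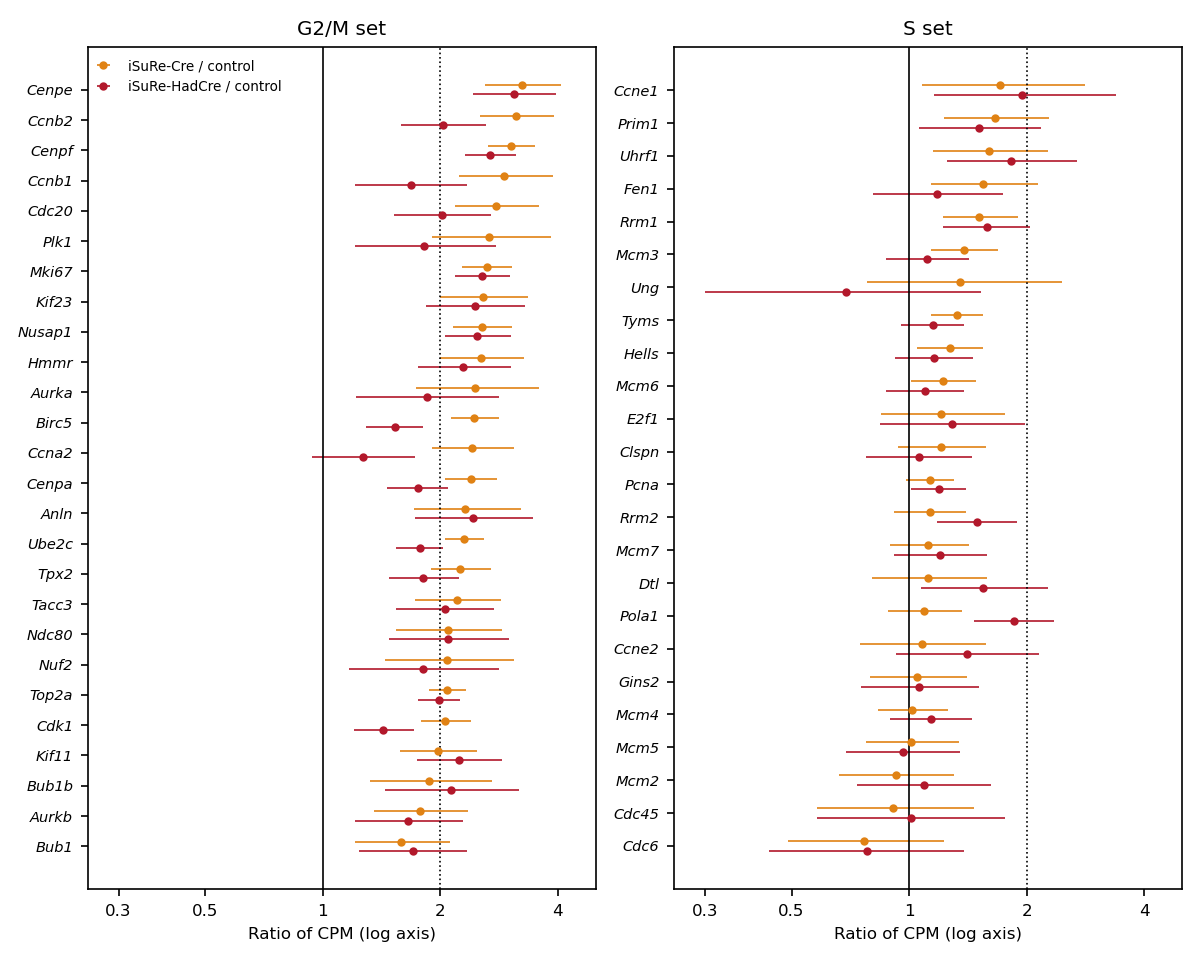
Ratio of CPM to control heart for each member of the G2/M set (left) and the S set (right), on a log axis, in iSuRe-Cre and iSuRe-HadCre heart ECs. Points are ratios of 1 group to 1 group with exact 95% intervals for counting error, the solid line is at 1 and the dotted line at 2. All 26 G2/M members lie above 1 in both comparisons, and no S member reaches 2.

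Kinetochore genes had the highest ratios of the 6 G2/M roles. The kinetochore is the protein plate by which chromosomes hold microtubules, and its 5 members summed to 202 CPM in control, 550.5 in iSuRe-Cre and 473 CPM in iSuRe-HadCre heart ECs, ratios of 2.73 and 2.35. Cenpe, a kinesin that carries chromosomes to the metaphase plate, was at 30.0, 97.4 and 92.8 CPM, 3.24-fold (2.61 to 4.07) and 3.09-fold (2.43 to 3.96) control. Cenpf, a large kinetochore protein, was at 79.2, 240.5 and 212 CPM, 3.04-fold and 2.68-fold. Cenpa, the centromeric histone, was at 64.7, 155 and 113 CPM. Ndc80 and Nuf2, which form part of the microtubule-binding complex, were at 16.5 and 11.2 CPM in control and between 20.3 and 34.5 CPM in the iSuRe groups.

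CDK1, the kinase that drives entry into mitosis, and its cyclins were lower in iSuRe-HadCre than in iSuRe-Cre over all heart ECs, an order that turned with the WPRE limit. The 4 genes summed to 149 CPM in control, 366 in iSuRe-Cre and 232 CPM in iSuRe-HadCre heart ECs, ratios to control of 2.46 and 1.56. Cyclin B2 (Ccnb2) was at 31.7, 98.9 and 64.5 CPM, cyclin B1 (Ccnb1) at 19.8, 57.8 and 33.2 CPM and cyclin A2 (Ccna2) at 26.4, 63.7 and 33.5 CPM. Cdk1 itself was at 70.6, 145 and 101 CPM. Ccna2 (1.27-fold, 0.939 to 1.72) and Cdk1 (1.43-fold, 1.20 to 1.71) were the 2 lowest G2/M ratios of iSuRe-HadCre to control. With WPRE above 0.5, iSuRe-HadCre over iSuRe-Cre was 1.44 for Cdk1, 1.29 for Ccnb1, 1.25 for Ccnb2 and 1.07 for Ccna2. Among heart cells of 10000 to 20000 UMIs it was 0.985, 0.948, 0.936 and 0.647.

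The 3 markers of proliferation at large, Mki67, the topoisomerase Top2a and survivin (Birc5), summed to 267 CPM in control, 620.3 in iSuRe-Cre and 533 CPM in iSuRe-HadCre heart. Mki67 was at 68.0, 179 and 174 CPM, 2.63-fold (2.27 to 3.06) and 2.56-fold (2.18 to 3.02) control. Top2a was at 123, 257 and 244 CPM. Birc5, a subunit of the chromosomal passenger complex, was at 75.6, 185 and 115 CPM, with a ratio of 1.53 (1.29 to 1.81) in iSuRe-HadCre. Over all cells Mki67 and Top2a were thus nearly level between the iSuRe groups, and Birc5 was not. With WPRE above 0.5 the iSuRe-HadCre to iSuRe-Cre ratios were 1.82 for Mki67, 2.25 for Top2a and 1.07 for Birc5.

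Mitotic kinases had the lowest ratios among the G2/M roles in iSuRe-Cre, 1.98 as a sum (80.5 to 159.7 CPM), and 1.80 in iSuRe-HadCre. Bub1 and Bub1b, kinases of the spindle checkpoint, and Aurkb, the kinase of the passenger complex, were the 3 lowest G2/M members in iSuRe-Cre over control, with ratios of 1.59 (1.21 to 2.12), 1.87 and 1.77. Their levels were 21.5, 12.9 and 21.5 CPM in control and 34.2, 24.1 and 37.9 in iSuRe-Cre heart. Plk1 and Aurka, kinases of the spindle poles, were at 12.5 and 12.2 CPM in control and 33.5 and 30.0 CPM in iSuRe-Cre. Aurka, Aurkb, Bub1 and Bub1b were at 0.831- to 0.912-fold control in the iSuRe-Cre cells with WPRE above 0.5.

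Ube2c and Cdc20, the ubiquitin-conjugating enzyme and the activator of the anaphase-promoting complex, summed to 133 CPM in control, 317 in iSuRe-Cre and 241 CPM in iSuRe-HadCre heart. The 7 spindle and cytokinesis genes (Tpx2, Nusap1, Hmmr, Kif11, Kif23, Tacc3 and Anln) summed to 216, 508 and 479.5 CPM. Nusap1, a microtubule bundler, was at 48.8, 125 and 121 CPM, and the cleavage furrow protein anillin (Anln) at 15.8, 36.7 and 38.4 CPM. All of these were higher in both iSuRe groups than in control, but with WPRE above 0.5 in iSuRe-Cre Ube2c was at 0.769-fold, Kif11 at 0.776-fold and Anln at 0.938-fold control there.

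The 6 S roles were at 0.998- to 1.48-fold control in heart, below every G2/M role. The 6 MCM genes, which encode the replicative helicase, summed to 207 CPM in control, 238 in iSuRe-Cre and 229.8 CPM in iSuRe-HadCre. The genes of origin licensing and firing (Cdc6, Cdc45, Gins2 and Dtl) summed to 57.4, 57.3 and 65.7 CPM. Cdc6, which loads the helicase, was at 9.90, 7.59 and 7.73 CPM, the lowest S ratio of iSuRe-Cre (0.766, 0.489 to 1.23), next to Cdc45 (0.912) and Mcm2 (0.923). The intervals of these 3 genes hold 1. The MCM interval lay above 1 in iSuRe-Cre (1.05 to 1.26) and held 1 in iSuRe-HadCre, and in the other 4 roles both intervals lay above 1. Fork and lagging strand genes were at 1.22-fold (1.11 to 1.34) control in iSuRe-Cre and at 1.33-fold (1.20 to 1.49) in iSuRe-HadCre, nucleotide supply at 1.32-fold in both, maintenance methylation and chromatin at 1.35- and 1.32-fold, and the G1/S cyclins with E2f1 at 1.27-fold (1.02 to 1.59) and 1.48-fold (1.15 to 1.91).

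The highest S ratios belonged to other steps. Ccne1, cyclin E1 of the G1/S transition, was at 7.59, 13.0 and 14.8 CPM in control, iSuRe-Cre and iSuRe-HadCre heart, 1.71-fold (1.08 to 2.82) and 1.95-fold (1.16 to 3.38). Uhrf1, which keeps DNA methylation through replication, was at 14.5, 23.2 and 26.4 CPM, and Prim1, a primase subunit, at 17.5, 29.0 and 26.4 CPM. Pola1, the catalytic subunit of DNA polymerase alpha, was at 37.6 and 41.2 CPM in control and iSuRe-Cre and 69.9 CPM in iSuRe-HadCre, 1.86-fold control (1.47 to 2.35). Ung, which removes uracil from DNA, had 17 and 12 UMIs in control and iSuRe-HadCre, too few to give a direction.

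Between the iSuRe groups no G2/M or S member was 2-fold higher or lower in heart (background 7.82% higher and 3.45% lower of 12367 genes). The G2/M set of iSuRe-HadCre was 0.834-fold (0.811 to 0.858) iSuRe-Cre. Of its members 5 of 26 were above 1, with a median of 0.892 against 1.16 over all genes. Ccna2 (0.526, 0.422 to 0.650), Ccnb1 (0.574, 0.460 to 0.712) and Birc5 (0.625) were lowest, and Bub1b, Kif11 and Bub1 highest at 1.14, 1.13 and 1.06. Pola1 was the highest S member at 1.70 (1.43 to 2.02). With WPRE above 0.5 in both groups the G2/M ratio was 1.78, so the direction between the 2 alleles depended on that criterion.

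Further genes of the cycle, listed by name, were counted the same way. Of 40 further G2/M genes, 21 were at least 2-fold higher in iSuRe-Cre, and 12 genes in iSuRe-HadCre heart ECs, than in control, against 6.10% and 6.20% of all genes. Their medians were 2.07 and 1.82, against 0.961 and 1.10 over all genes, and all 40 were above 1 in both. Ckap2, a spindle protein, had the highest ratios, at 14.9, 69.1 and 47.7 CPM. Of 24 further S genes 0 were 2-fold higher in either, with medians of 1.14 and 1.15. Of 29 regulators of G1/S and G2/M, 1 was 2-fold higher in each, a share below that of all genes, Ccnd1 in iSuRe-Cre (457 against 962 CPM, cyclin D1) and Cdc25b in iSuRe-HadCre (7.92 against 18.4 CPM, a phosphatase that activates CDKs). Rb1, the retinoblastoma gene, was lowest in iSuRe-Cre at 63.5 against 105 CPM.

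The 10 non-members most like the G2/M sum over the 1000 heart ECs were Cdca8, Prc1, Hmgb2, Cks2, Lmnb1, Knl1, Racgap1, Spc24, Cdca3 and Kif20b, with Pearson r on log-normalized values of 0.83 to 0.75 among 7981 genes. All 10 were on the list of further G2/M genes. The lowest was Slfn5 at -0.36. These are descriptions over cells of 1 library that share depth.

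The cyclin-dependent kinase inhibitors did not move together in heart. Cdkn1a, the p21 gene, was at 161 CPM in control, 499 in iSuRe-Cre and 244 CPM in iSuRe-HadCre heart ECs. Between cells it was lower in G2/M-rich ones, at 131 against 167 CPM in control, 390.2 against 553 in iSuRe-Cre and 151 against 279 in iSuRe-HadCre heart, although the interval of the control ratio (0.591 to 1.01) holds 1. Cdkn1b was higher in them in control (126 against 77.4 CPM) and iSuRe-Cre (114 against 53.4). Cdkn1c was at 405, 253 and 588 CPM in the 3 heart groups, and Cdkn2c at 16.2, 32.4 and 25.1.

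Liver comparisons gave few members past 2-fold. In iSuRe-Cre over control, Plk1 and Aurkb of 26 G2/M members and Ung of 24 S members were 2-fold higher (background 7.43% higher and 10.0% lower), on 5, 7 and 2 control UMIs. Uhrf1 was at 16.0 CPM in control, 24.8 in iSuRe-Cre and 38.1 CPM in iSuRe-HadCre liver. In iSuRe-HadCre over control, 3 of the 25 G2/M and 3 of the 19 S members with enough UMIs were 2-fold higher (background 3.65% higher and 4.54% lower), Aurkb, Aurka and Anln and Uhrf1, Ccne2 and Tyms. Tyms, thymidylate synthase, was at 95.2 against 44.9 CPM, 2.12-fold (1.34 to 3.43). In iSuRe-HadCre over iSuRe-Cre liver 1 of the 50 members, Cdc6, was 2-fold higher (background 7.35% higher and 7.04% lower), on 13 and 87 UMIs, and 25 of 26 G2/M members were above 1 with a median of 1.31, against 1.05 over all genes. The set ratio behind this, 1.27, was 0.920 without the 5% of cells highest in UMIs, and the same 4 deep iSuRe-HadCre cells enter it.

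The liver groups differed in makeup. Stab2, a marker of sinusoidal endothelium, gave a UMI in 22.2% of control, 72.0% of iSuRe-Cre and 31.6% of iSuRe-HadCre liver ECs, and the sinusoidal list summed to 383, 4267 and 1018 CPM (614 in free RNA). In 431 sinusoidal-like iSuRe-Cre cells the G2/M set was at 868 CPM and 7.89% (5.52 to 10.8) of cells were G2/M-rich, while in the 265 with none of the lists 50.2% were. Control and iSuRe-HadCre liver had 1 and 7 sinusoidal-like cells, so subtype and condition cannot be told apart there. In large-vessel-like liver ECs the G2/M set was at 695 CPM in 23 control, 1124 CPM in 90 iSuRe-Cre and 1016 CPM in 18 iSuRe-HadCre cells, though 1 cell was G2/M-rich in control and 1 in iSuRe-HadCre.

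G2/M-rich iSuRe-Cre liver cells also held fewer hashtag UMIs, a median of 189 against 503 in the others. At 280 UMIs or more of the hashtag 9.49% of 527 cells were G2/M-rich, and below it 40.8% of 331. In iSuRe-HadCre liver the medians were 63.0 against 104, and in control liver 140.5 against 89.5. In heart they were higher in G2/M-rich cells, 128 against 71.5 in control, 68.5 against 61.0 in iSuRe-Cre and 67.0 against 57.0 in iSuRe-HadCre. The neutrophil list (Ngp, Camp and others) summed to 3415 CPM in iSuRe-Cre liver, 598 in control and 43.9 in iSuRe-HadCre liver, and to 1912 CPM in free RNA. The hepatocyte list summed to 906 CPM in iSuRe-Cre heart against 146 and 117 CPM in the other heart groups, 92.0% of it in 10 cells, and without the 4 cells richest in it the G2/M set there was at 2553 CPM. The part of the other lists and of hashtag level in the liver values was not tested.

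Between organs, the G2/M set over all ECs was lower in liver than in heart of iSuRe-Cre pups, with a ratio of 0.516 (0.505 to 0.528). Of its members 11 of 26 were at least 2-fold lower (background 5.01%), none was above 1 and the median was 0.533, where it was 1.10 over all genes. Cenpf was at 87.2 against 240.5 CPM, Cdc20 at 27.5 against 68.6 and Cenpe at 40.3 against 97.4. The S set had a ratio of 1.04, with 0 of 24 members past 2-fold. With WPRE above 0.5 the G2/M ratio was 1.14. By subtype it was 0.448 (0.408 to 0.491) in capillary-like cells and 0.860 (0.827 to 0.894) in cells with none of the lists. In large-vessel-like cells it went the other way, at 11.5 (8.12 to 16.9) over 90 liver and 24 heart cells. The iSuRe-Cre groups had 431 sinusoidal-like cells in liver and 1 in heart, so organ and subtype cannot be told apart in the ratio over all ECs. In control pups liver over heart gave 1.26 for the G2/M set (1.98 with at least 1 Cdh5 UMI and 1.74 as a mean over cells), with 0 members past 2-fold in either direction (background 9.60% higher, 5.00% lower), and in iSuRe-HadCre pups 0.789, with 0 G2/M members and 1 of 23 S members, Cdc6, 2-fold higher (background 5.20% higher, 6.79% lower).

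The library also held many cells without Cdh5 UMIs that carried markers of other types, most of them without a hashtag, and they show the range of the 2 sets. Cells were gated when 1 marker list alone gave at least 5 UMIs from at least 3 genes at 5 or more times its free RNA share, limits set after the marker counts were seen. Their organ and condition are not known. The neural progenitor- or glia-like gate (226 cells, led by Fabp7, Hes5 and Olig1) had the highest G2/M level, 4435 CPM, and 2212 CPM of the S set. The neuron-like gate (291 cells, led by Gfy, Otp and Th) had the lowest, 978 and 603 CPM. Control heart ECs, at 1046 and 698 CPM, lay near the neuron-like cells in these sums. The share of G2/M-rich cells differed, 16.8% in the neuron-like gate and 8.66% in control heart. G2/M-rich neuron-like cells were shallower than the others of their gate (median 3022 against 11496 UMIs), unlike those of heart.

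Between these ends, neutrophil-lineage-like cells (202) had 3346 CPM of the G2/M and 1068 of the S set, smooth muscle- or pericyte-like cells (119) 3137 and 1609.7, and macrophage-like cells (177) 2874 and 1317. Chondrocyte-like cells (276) had 2623 and 1491 CPM, keratinocyte-like cells (317) 2521 and 1591, hepatocyte-like cells (151) 1732 and 1141, and mesenchymal-like cells (331) 1726 and 1081. Neutrophil-lineage-like and mesenchymal-like cells thus had nearly level S sums and unequal G2/M sums. In the G2/M-rich cells the ratio of G2/M to S UMIs was 4.21 and 4.41 in these 2 gates. The 61 cells of the cardiomyocyte list were led by Myh7, Mymx and Tnnc2, genes of skeletal or slow muscle, so the name was not used, and they had 2129 and 1069.9 CPM.

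S genes were highest in erythroid-like cells, of which 28 passed the globin limit at a median of 45332 UMIs. They had 3344 CPM of the S set and 3790.3 CPM of the G2/M set, and 24 of 28 were G2/M-rich, with 1.14 G2/M UMIs per S UMI in those cells. Mcm5 was at 126 CPM there, Rrm2 at 288 and Ccne1 at 189.8, against 13.0 to 93.1, 43.7 to 199 and 16.5 to 93.4 CPM in the other gates. Lymphocyte-like cells (23, led by Igll1 and Cd79a, genes of B cells) had 2376 CPM of the S set as a sum, and 1206 CPM when each cell was thinned to 2000 UMIs. At that depth they lay below the neural progenitor- or glia-like, keratinocyte-like, smooth muscle- or pericyte-like, chondrocyte-like and macrophage-like cells. Erythroid-like cells were still highest when thinned, at 2962 CPM. In the 6 EC groups the G2/M to S ratio of UMIs in G2/M-rich cells was 2.71 to 5.37.

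**Figure D5:**
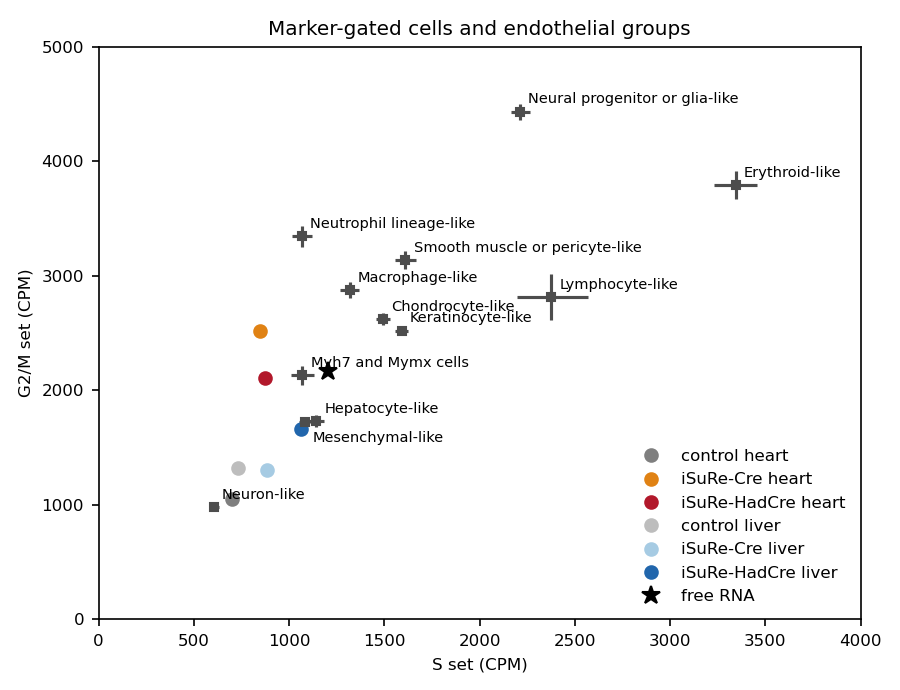
Level of the S set (horizontal axis, CPM) and the G2/M set (vertical axis, CPM) in marker-gated cells (squares, with exact 95% Poisson intervals), in the 6 EC groups (circles) and in free RNA (star). Each point is a sum over the cells of 1 gate or group of 1 library. Neural progenitor- or glia-like cells lie highest at 4435 CPM of the G2/M set and erythroid-like cells farthest right at 3344 CPM of the S set, while control heart ECs lie near neuron-like cells.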

How the data were processed

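Liver and heart ECs were measured by single-cell RNA-seq in 1 hashtagged library. Per the labels and file header, Cell Ranger 7.1.0 was run against GRCm38 plus transgene sequences, and the authors deposited unfiltered UMI counts per gene and barcode, without normalization. Of 2755147 barcodes, 24161 had above 2000 gene UMIs. Kept were 14348 with under 75000 UMIs, over 500 genes, and mitochondrial and globin shares under 5% each. A hashtag was called at 25 UMIs or 5 times its median if higher (140 UMIs for iSuRe-Cre liver). Left out were 186 barcodes with 2 or more hashtags, as doublets, and no other doublet caller was run. Cdh5 above 0.9 is the natural log of 1 plus UMIs per 10000, and left 1988 hashtagged ECs. The WPRE limit of 0.5 named in the study's methods was applied as an alternative only, and in ratios to the iSuRe groups and not to control. The 7 other hashtag features were not used.

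Levels are UMIs summed over a group's cells and scaled to CPM, with Poisson intervals (exact), Clopper-Pearson intervals for shares and exact conditional binomial intervals for ratios, all at 95%. PCR and capture error are not in them. Ratios by gene used genes with at least 20 UMIs over both groups, and 2-fold was the limit for a count. All 50 members were described by role. Values were given for members among the 3 highest or 3 lowest ratios of their set, and for further examples of each role picked after their values were seen. The members and lists were chosen with earlier results of these data known. Alternatives changed hashtag, Cdh5, WPRE and depth limits, free RNA and averaging. On simulated counts for iSuRe-Cre over control heart, with 12180 genes, 200 of 200 changed genes were recovered and 94.9% of 1000 intervals held the ratio. These counts had Poisson error only, as the intervals assume, and planted changes beyond the 2-fold limit. They therefore check the computation and not the spread between cells or pups. Python 3.11.15, numpy 2.4.6, scipy 1.17.1, pandas 2.3.3 and matplotlib 3.10.9 were used.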

Additional observations from a re-analysis of the deposited data

Results flagged for a closer look

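Cell cycle genes were also high in ECs that carried no hashtag, which enter no comparison because neither organ nor condition is known for them. In these 5585 cells the G2/M set was at 2096 CPM and the S set at 1089 CPM, above both control groups. Of these cells 35.3% (34.1 to 36.6) were G2/M-rich, and 1104 lay near that limit. Their median depth was 4220.0 UMIs, below every hashtagged group, and free RNA held the sets at 2164 and 1205 CPM. In the cells that were not G2/M-rich the G2/M set was at 612 CPM.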

How the results depend on the processing

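No paired analysis was possible because each group is 1 sample. Of 156 set ratios and set levels under other settings 78 moved beyond the main value's interval, and of 924 other values 179 moved. On the other side of 1 than the main value lay 12 of 108 set ratios, from 7 comparisons, and 107 of 900 member ratios, 4 of which had been at least 2-fold. Under settings chosen after seeing the data, 23 of 30 and 163 of 462 moved, and 5 of 30 set ratios and 67 of 450 member ratios changed sides of 1. The causes were not tested. Below, Cre is iSuRe-Cre, Had is iSuRe-HadCre, and a ratio is written first over second.

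With a hashtag minimum of 10 UMIs the G2/M ratios in heart were 2.18 (Cre over control), 1.87 (Had over control) and 0.861 (Had over Cre), in liver 0.819, 0.941 and 1.15 in the same order, and liver over heart 1.42 (control), 0.533 (Cre) and 0.711 (Had), and the S ratio of Cre over control liver was 1.06. With at least 1 Cdh5 UMI the G2/M ratios were 0.680, 0.728 and 1.07 in liver and 1.98, 0.560 and 0.703 for liver over heart, and the S ratios 1.05 (Cre over control liver), 1.36 (Had over Cre liver), 1.26, 1.09 and 1.40 (liver over heart). With WPRE above 0.5 in the iSuRe groups the G2/M ratios were 1.17 (Cre over control heart), 1.78 (Had over Cre heart) and 1.14 (Cre liver over heart), and the S ratios 1.07, 1.21 and 1.17. Top2a (0.910), Aurka (0.831), Ube2c (0.769) and Anln (0.938) then lay below control in Cre heart.

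Without the 5% of cells highest in UMIs the G2/M ratios were 2.78 (Cre over control heart), 0.729 (Had over Cre heart), 0.940 and 0.920 (Had over control and over Cre liver), 0.478 and 0.604 (Cre and Had liver over heart), and the S ratios 1.40, 1.14 and 0.815 in heart and 1.26, 0.998 and 1.49 for liver over heart. With free RNA subtracted the G2/M ratios were 2.54 (Cre over control heart) and 0.455 (Cre liver over heart), and the S ratios 1.14 (Cre over control heart) and 1.11 (Had over Cre heart). As means over cells the G2/M ratios were 3.29, 2.13 and 0.649 in heart, 1.06 and 1.06 (Had over control and over Cre liver) and 1.74, 0.529 and 0.861 for liver over heart, and the S ratios 1.58 and 0.767 (Cre over control and Had over Cre heart), 1.45 and 1.57 (control and Had liver over heart).

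Among the settings chosen after seeing the data, heart cells of 10000 to 20000 UMIs gave G2/M ratios of 3.75, 4.29 and 1.14 and S ratios of 1.44, 1.41 and 0.973. Capillary-like heart cells gave G2/M ratios of 3.31 and 2.72 over control and S ratios of 1.50 (Cre over control) and 0.862 (Had over Cre). With the hashtag at double its minimum the G2/M ratios were 2.12 (Had over control heart), 0.862 (Had over Cre heart), 0.700, 1.14 and 1.64 in liver, 1.43 (control liver over heart) and 0.407 (Cre liver over heart), and the S ratios 1.13 (Cre over control heart), 1.15 (Had over Cre heart), 0.991 (Cre over control liver), 1.22 (Had over control liver), 0.946 and 1.01 (Cre and Had liver over heart).

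Gated cells thinned to 2000 UMIs each had the G2/M set at 2249 CPM (keratinocyte-like), 2082 (chondrocyte-like), 1347 (mesenchymal-like), 1127 (neuron-like), 3548 (neural progenitor- or glia-like), 2645 (smooth muscle- or pericyte-like), 2353 (macrophage-like), 2542 (neutrophil-lineage-like), 2009.9 (hepatocyte-like), 3161 (erythroid-like), 1738 (Myh7 and Mymx cells) and 1893 (lymphocyte-like). The S set was then at 1404 (keratinocyte-like), 1316 (chondrocyte-like), 969 (mesenchymal-like), 673 (neuron-like), 1999 (neural progenitor- or glia-like), 1369 (smooth muscle- or pericyte-like), 992 (hepatocyte-like), 2962 (erythroid-like), 921 (Myh7 and Mymx cells) and 1206 CPM (lymphocyte-like). With double the marker minimum the neuron-like G2/M level was 941 CPM. The smallest group, control liver, has 54 cells, and no comparison has a replicate.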
